A study of Rattus norvegicus with 23 samples.

Results

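Collagens and laminins are the chains that build fibrils and basement membranes, and 33 probe sets for them were followed across the hippocampus of young rats and of aged rats with or without extra FKBP1b. The members were every probe set with a single gene symbol that begins with Col, a chain number and an alpha number, or with Lama, Lamb or Lamc and a number, and Col8a1 was left out by that rule. They comprised 26 collagen probe sets and 7 laminin probe sets for 31 symbols, out of 29211 probe sets on the array. Col6a4 was read by 3 probe sets and each other symbol by 1. The rule uses gene symbols and no measured value, but it was chosen with earlier results of these data known. Col4a2, Lama2, Lama4 and Lamb1 had no probe set with a single symbol and were not analysed here.

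All rats were male F344, and RNA came from the dorsal hippocampus, with 1 Affymetrix Rat Gene 1.0 ST array for each animal. Young controls (YC, n = 6) were 5 to 6 months old, carry the treatment label sham, and by the methods received no injection. The aged groups were 21 months old and had all received an adeno-associated virus (AAV) in the hippocampus, with its gene driven by the CaMKII promoter, which is active in excitatory neurons. Aged controls (AC, n = 5) received a virus for the green fluorescent protein eGFP, and the short-term (ST, n = 6) and long-term (LT, n = 6) groups received a virus for FKBP1b, a protein that binds the ryanodine receptor and restrains calcium release. By the sample labels the injection was at 18 months for AC and ST and at 12 months for LT, whereas the series' design text gives 13 months for AC, 19 months for ST and 13 months for LT. The eGFP virus was given at a higher titer than the FKBP1b virus, and the ST and LT rats used for arrays were selected among those with FKBP1b above their group's median. Age, surgery and virus therefore cannot be told apart between AC and YC, nor can transgene and titer between AC and the FKBP1b groups. Age at injection and time since injection also differ from AC, in LT by the labels and in ST by the design text. There they cannot be told apart from the transgene either.

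A collagen molecule is a rope of alpha chains wound around each other, and the kind of chain it is made of decides whether it joins a banded fibril, decorates one, spans a membrane or forms the meshwork of a basement membrane. A laminin is a cross-shaped trimer of an alpha, a beta and a gamma chain that polymerizes into the first layer of every basement membrane and is then linked to collagen IV. In the brain these membranes ensheathe the vessels and lie under the pia, while fibrillar collagens are made chiefly by fibroblasts of the meninges and of large vessels.

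All values are deposited signal intensities on a linear scale, and group means are given with the SD. A log2 difference is the mean log2 signal of the first group minus that of the second. A probe set was called at an adjusted p under 0.05 from limma, with Benjamini-Hochberg adjustment over the 13339 probe sets that have a single symbol and reached a signal of 40 on at least 4 arrays. All 33 members passed that minimum. The median signal of an array lay between 134 and 141, and several members read below it, such as Col14a1 (70 to 87) and Lama1 (85 to 113). Members were set beside all probe sets tested and not beside ones of similar signal. Signals are compared between animals and not between probe sets. The pieces of tissue were mixtures of cells, so fewer cells of a type and less RNA in each cell cannot be told apart, and the number of arrays sets the precision of every difference.

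Several arrays stood apart. The Fkbp1b probe set ranged from 353 to 411 in YC and from 364 to 458 in AC. It ranged from 427 to 881 in ST, overlapping AC, and from 843 to 1217 in LT, above every AC array. On AC 3, AC 4, LT 2 and LT 5 the choroid plexus transcript Ttr read at least 14512, against at most 5767 on the other 19 arrays. These 4 are called the choroid-high arrays here. The centred mean log2 signal of 13 measured choroid plexus genes was 2.701 to 3.266 on them and at most 0.553 elsewhere, and the mean of the 9 measured markers of meninges and fibroblasts was highest on the same 4. AC 5 differed in another way: the fibroblast proteoglycan Lum read 241 there and at most 68 on the other 22 arrays. The mean of the 8 hippocampal neuron markers was lowest there at -0.404, but the markers were split. Wfs1 (580), Prox1 (333) and Camk2a (6330) read lowest of all arrays on AC 5, and Slc17a7 (5764) and Calb1 (834) highest. The remaining markers were neither. RNA integrity numbers lay between 8.9 and 9.8.

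**Figure D1:**
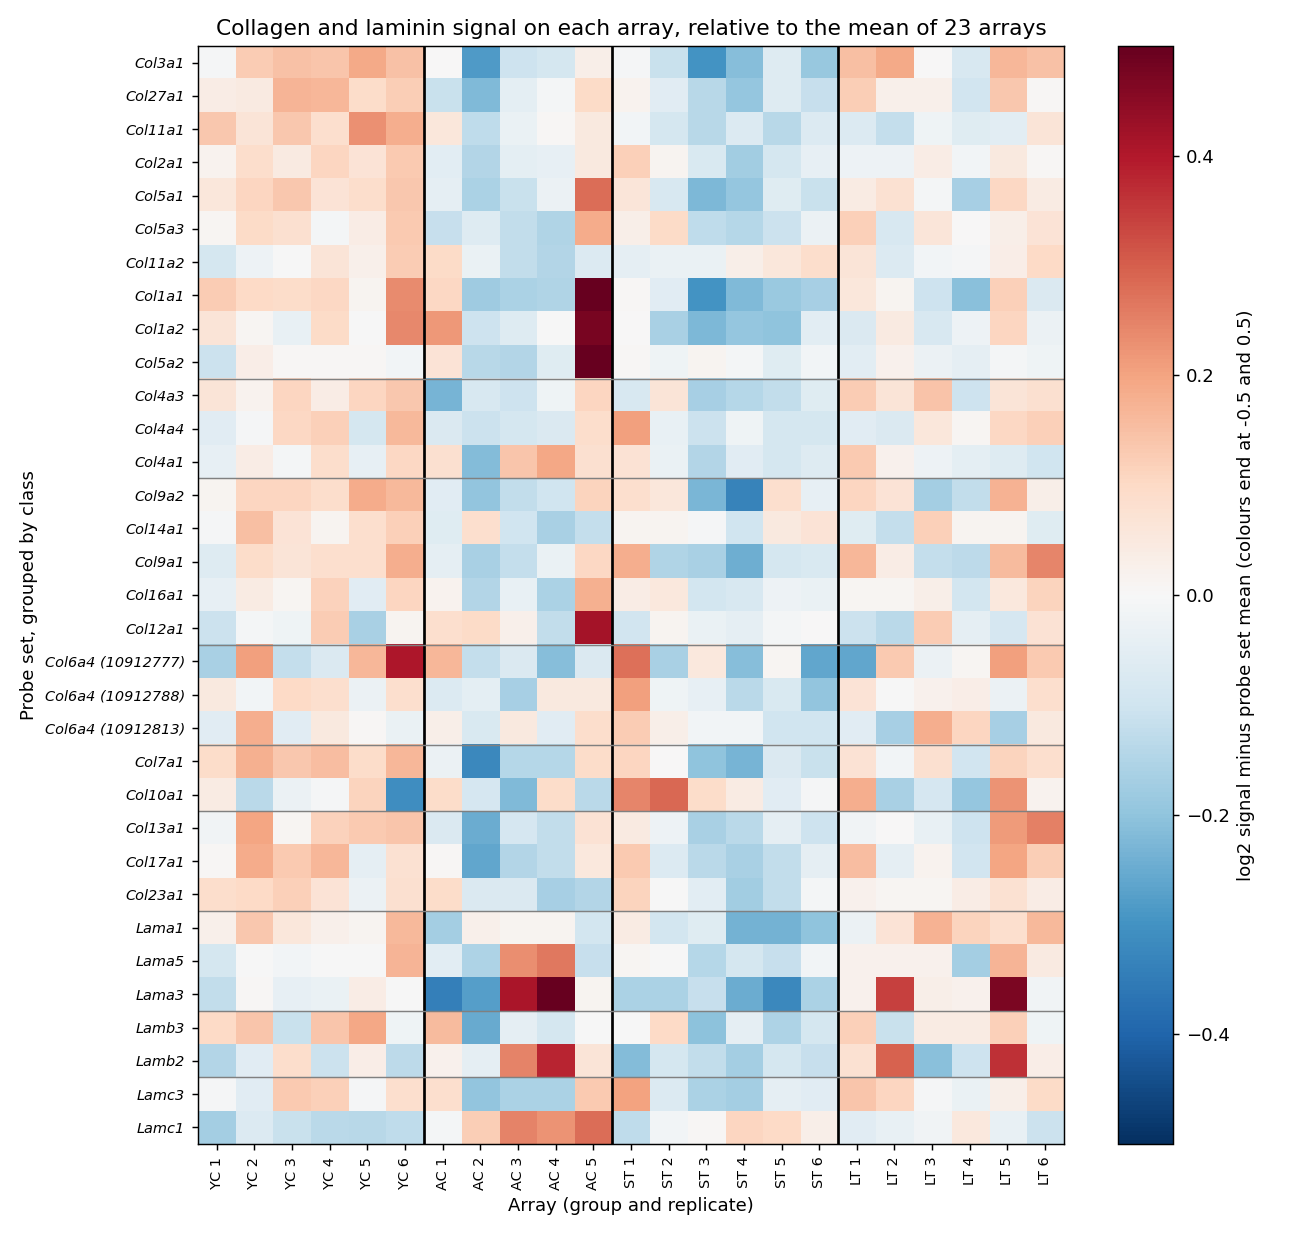
Log2 signal of each of the 33 probe sets on each of the 23 arrays, minus the probe set's mean over all arrays, with colours ending at -0.5 and 0.5. Rows are grouped by class and columns by group. Most rows are above their mean in YC, and Lamc1 is below it in YC. Among the stronger colours are Lama3 and, less so, Lamb2 on AC 3, AC 4, LT 2 and LT 5, and Col1a1, Col1a2 and Col5a2 on AC 5.

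Between the aged and young controls, collagens were mostly lower and 1 laminin chain was higher. In AC against YC, 6 of the 33 probe sets were called by limma, 1 of them higher and 5 lower. Over all probe sets tested, 9.75% were called, 5.56% as higher and 4.18% as lower. The members' 5 lower calls were 15.2% of them and the single higher call 3.03%. The log2 difference was below 0 for 24 of 33 members, against 52.5% of all probe sets, and the median was -0.11 for the members and -0.0062 for all probe sets. The 26 collagen probe sets had 21 differences below 0, all 5 lower calls and no higher call. The 7 laminins had 4 differences above 0. All log2 differences of members lay between -0.24 and 0.30.

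The count of 6 depended on which arrays were included. It was 12 without AC 5, with 11 lower, and 1 without the 4 choroid-high arrays, a setting that leaves 3 AC arrays. It was 3 without YC 2, YC 3, YC 4, YC 6, AC 2, AC 3 or AC 4. With the YC and AC arrays fitted alone, 1 member was called. In the fit without the choroid-high arrays the called member was Lamc1.

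**Figure D2:**
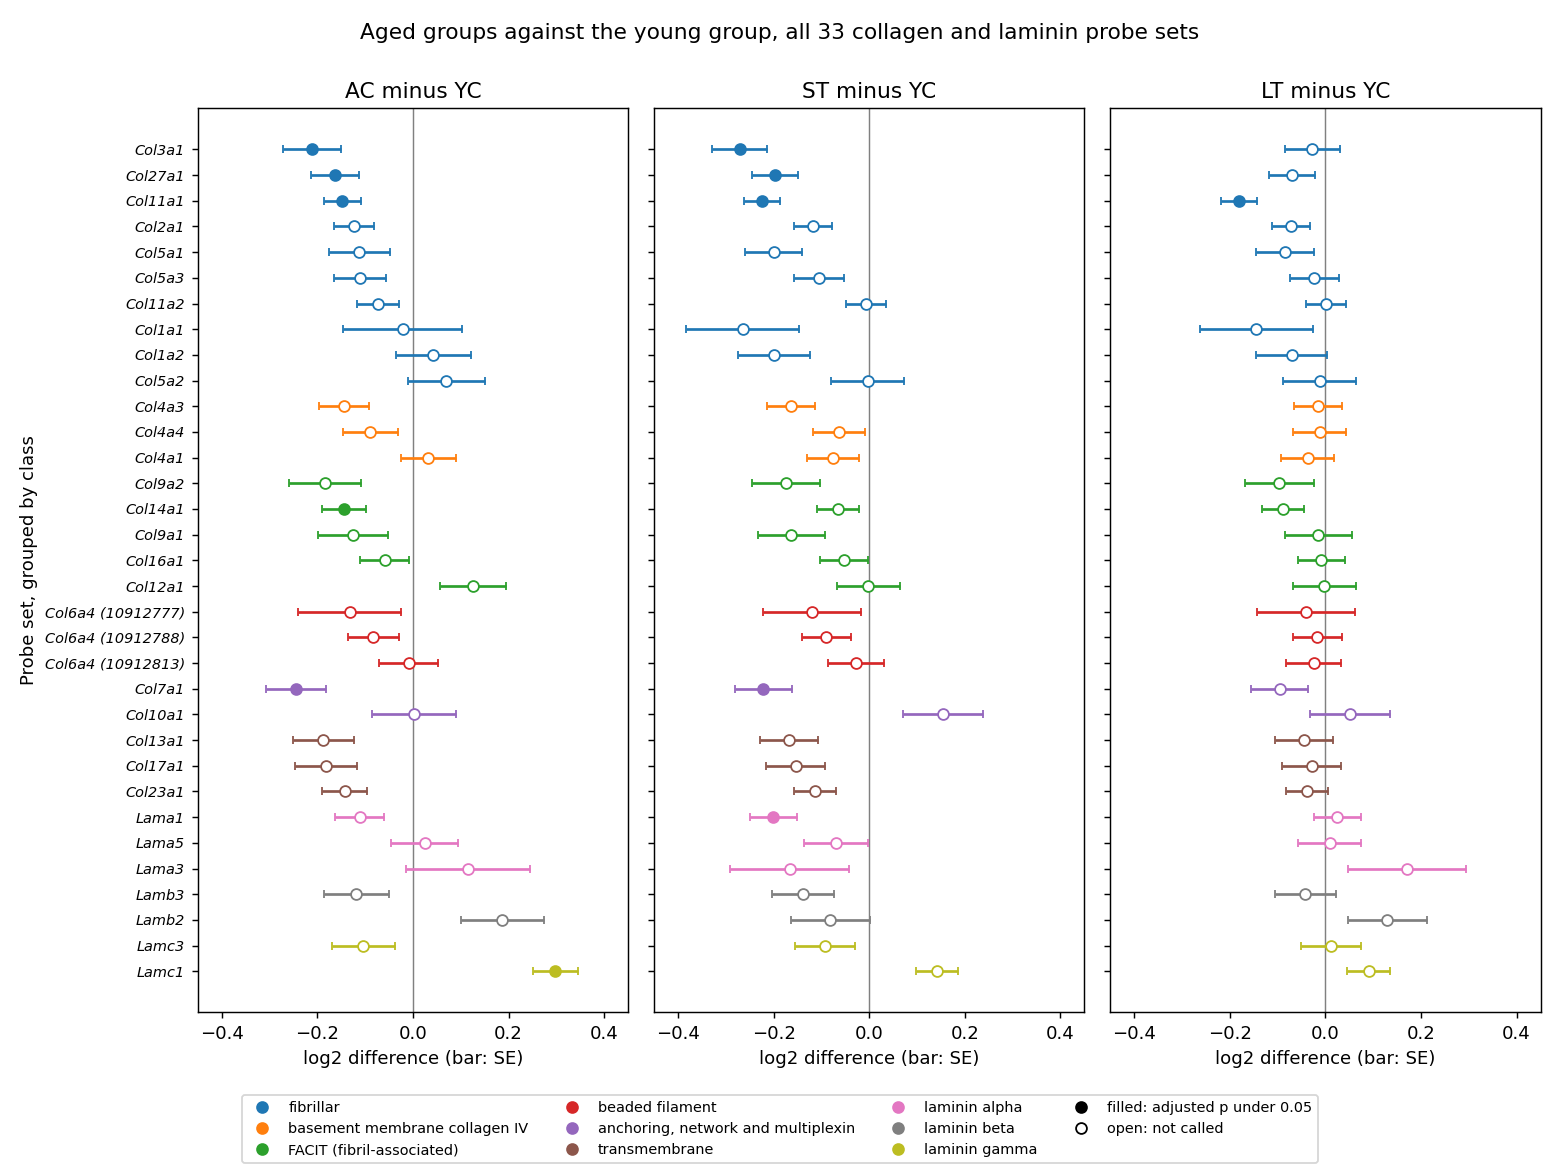
Log2 difference of each probe set from YC in AC, ST and LT, with the SE as the bar, grouped by class and ordered by the AC difference within each class. Filled points were called by limma at an adjusted p under 0.05 and open points were not. The points of AC and ST lie mostly left of 0 and those of LT nearer to it, and the 3 panels share the same YC arrays.

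Lamc1, the gamma chain of most vascular and pial laminins, was the member with the largest difference between AC and YC. Its signal in YC had a lowest value of 271, a median of 278.5 and a highest value of 291. The AC arrays read 303, 332, 362, 356 and 370. ST ranged from 279 to 329 with a median of 308.5, and LT from 283 to 316 with a median of 297. Every AC array lay above every YC array, 4 of the 6 ST arrays and 1 LT array lay within the AC range, and 4 LT arrays and 1 ST array lay between the AC and YC ranges. In all, 3.21% of probe sets had every AC array above every YC array, and Lamc1 was the only member that did. The means were 280 ± 6.6 in YC (n = 6) and 345 ± 27 in AC (n = 5), a log2 difference of 0.30 (SE 0.047, limma adjusted p = 0.0007788). The call held in each of the 23 fits that left out 1 array, with differences from 0.27 to 0.34, and in each of the 15 other settings. Without the choroid-high arrays the difference was 0.26 (limma adjusted p = 0.02273). Endothelial markers moved with it: 7 of the 10 marker genes were called higher in AC, against 5.56% of all probe sets. Their centred mean ranged from -0.02 to 0.381 in AC and from -0.161 to -0.078 in YC. Of 11 probe sets for markers of pericytes and smooth muscle, 1 was called higher in AC and 4 differences were below 0, with a median of 0.031. The part of these markers in the Lamc1 difference was not tested.

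Lamc1 was also the member with the smallest p in AC against each FKBP1b group, although it was not called. Its mean was 309 ± 18 in ST and 298 ± 11 in LT (n = 6 each). The log2 difference from AC was -0.16 in ST (SE 0.047, limma adjusted p = 0.3105) and -0.21 in LT (SE 0.047, limma adjusted p = 0.08108). Leaving out AC 1, the AC array with the lowest Lamc1 signal, gave -0.20 for ST (limma adjusted p = 0.0416) and -0.25 for LT (limma adjusted p = 0.009921). Of the 23 fits without 1 array, this was the only 1 that called either difference. The highest limma adjusted p in these fits was 0.6309 for ST and 0.196 for LT. The endothelial markers were likewise lower in LT than in AC, with all 10 differences below 0, against 51.8% of all probe sets. Of the 10, 1 was called lower, against 0.0225% of all probe sets. In ST against AC all 10 were also below 0, against 43.3% of all probe sets, and none was called. The differences of Lamc1 from YC were not called either, at 0.14 in ST (SE 0.045, limma adjusted p = 0.07205) and 0.09 in LT (SE 0.045). That of ST was called without AC 1, AC 5 or ST 1.

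The upstream sequences of the members called between AC and YC that have an entry in the promoter table used here, 4 of the 6, are shown because Lamc1 was higher in AC and the collagens lower. Each is the 250 bases before the annotated start in the rat build GRCr8, on the gene's own strand, 5′ to 3′. Capitals mark GGGCGG or its complement CCGCCC, the GC box bound by Sp factors, searched on both strands with overlaps allowed. In Lamc1, at chr13:68051987-68052236 on the minus strand, the letters occurred 5 times, and the first matches overlap. There were 3 matches in Col11a1 (chr2:204508886-204509135, plus strand) and 1 each in Col7a1 (chr8:118483114-118483363, plus strand) and Col27a1 (chr5:81662658-81662907, plus strand).
Lamc1: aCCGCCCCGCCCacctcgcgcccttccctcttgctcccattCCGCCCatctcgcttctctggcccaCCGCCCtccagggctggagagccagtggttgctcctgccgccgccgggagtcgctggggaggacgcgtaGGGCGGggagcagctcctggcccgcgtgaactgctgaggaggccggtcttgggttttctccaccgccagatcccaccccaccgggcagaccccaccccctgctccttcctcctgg
Col11a1: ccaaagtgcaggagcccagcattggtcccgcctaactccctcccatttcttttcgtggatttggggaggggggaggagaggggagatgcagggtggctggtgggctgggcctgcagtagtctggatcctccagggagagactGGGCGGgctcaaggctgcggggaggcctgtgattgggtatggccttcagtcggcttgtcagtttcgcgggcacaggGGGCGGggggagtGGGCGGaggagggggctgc
Col7a1: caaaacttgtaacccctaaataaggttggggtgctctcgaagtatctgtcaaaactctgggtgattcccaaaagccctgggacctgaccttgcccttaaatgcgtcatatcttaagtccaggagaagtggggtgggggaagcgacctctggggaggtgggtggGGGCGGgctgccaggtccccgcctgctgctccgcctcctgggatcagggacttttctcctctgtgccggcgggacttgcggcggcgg
Col27a1: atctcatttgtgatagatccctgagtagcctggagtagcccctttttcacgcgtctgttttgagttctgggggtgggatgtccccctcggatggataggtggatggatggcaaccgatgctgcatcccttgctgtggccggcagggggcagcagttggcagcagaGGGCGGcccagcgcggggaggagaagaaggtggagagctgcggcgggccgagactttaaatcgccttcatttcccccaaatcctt
The motif was present in 30.5% of all 33469 upstream windows of this length, and in 13 of the 25 member genes with an entry, or 52%. The windows shown hold 1 to 5 matches and that of Lama1, called in ST against YC, holds 0. Among members not called with all arrays, Lama5 holds 4 and Col11a2 and Col5a3 hold 3 each. A relation between matches and calls was not tested. A match is a description of letters and not of binding.

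**Figure D3:**
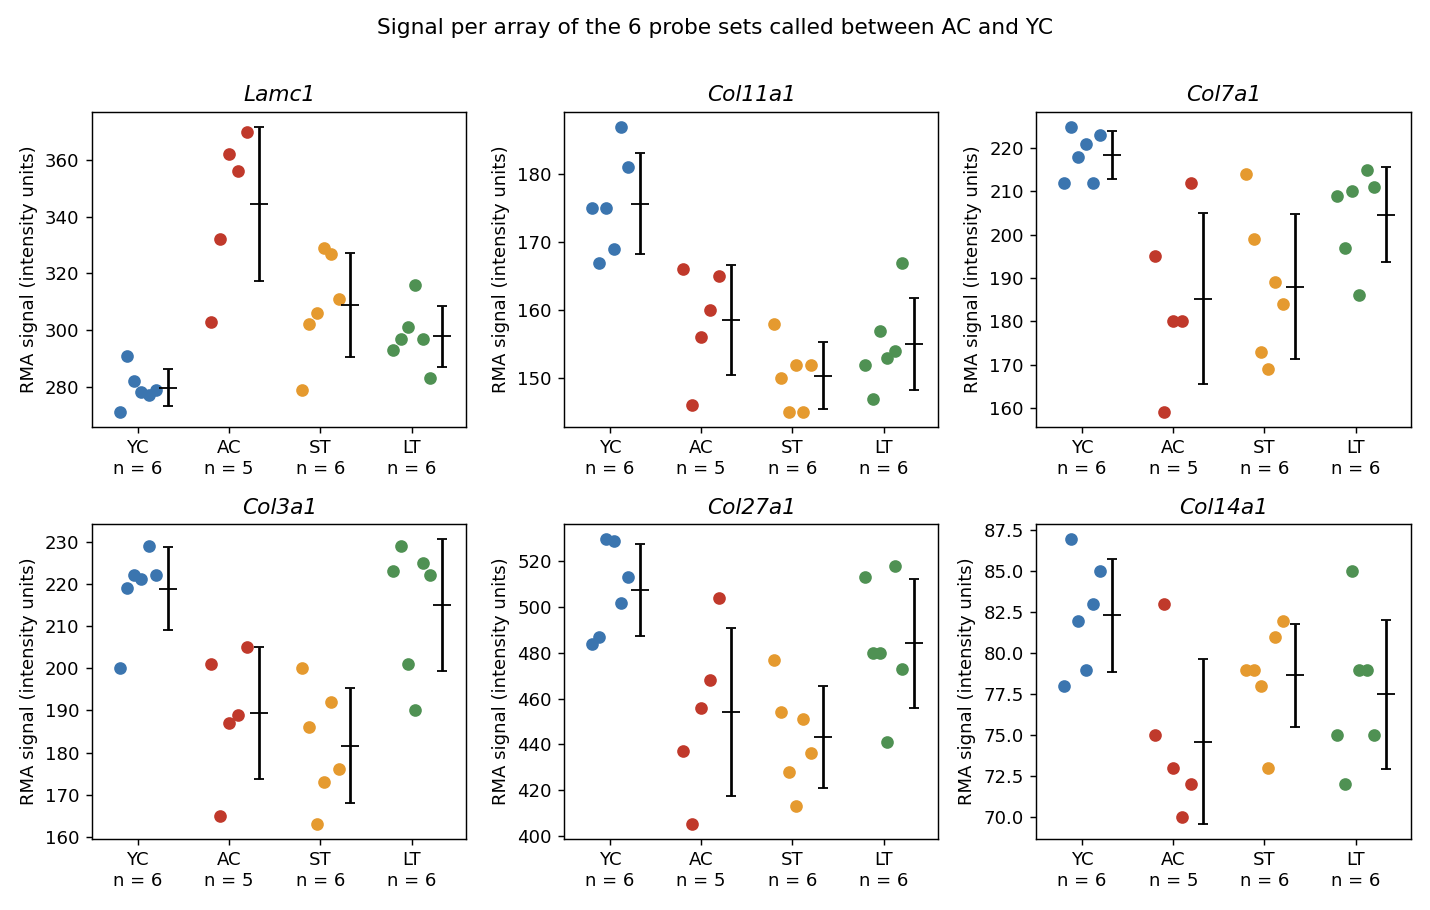
Signal intensity of the 6 probe sets called between AC and YC, with 1 point for each array and the mean and SD beside each group. Lamc1 is higher in every AC array (303 to 370) than in any YC array (271 to 291), and Col11a1 is lower in every AC array (146 to 166) than in any YC array (167 to 187), while the other 4 overlap.

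The fibrillar collagens, which build banded fibrils, had 3 of 10 probe sets called lower in AC and none called higher. Their differences were below 0 for 8 of 10, with a median of -0.11. Over all probe sets 4.18% were called lower and 52.5% had a difference below 0. Col11a1 encodes a minor chain that sets fibril diameter in cartilage. Its signal ranged from 167 to 187 in YC with a median of 175. The AC arrays read 166, 146, 156, 160 and 165, and the ranges were 145 to 158 in ST (median 151) and 147 to 167 in LT (median 153.5). No AC or ST array reached the lowest YC array, and the highest LT array equalled it. Among all probe sets, 1.88% had every AC array below every YC array, and Col11a1 was the only member that did. Col11a1 was called lower in AC (log2 difference -0.15, SE 0.039, limma adjusted p = 0.02095), in ST (-0.22, SE 0.037, limma adjusted p = 0.002676) and in LT (-0.18, SE 0.037, limma adjusted p = 0.01902). It was the only member called against YC in all 3 aged groups, all set against the same YC arrays. The AC call was lost without AC 2 (-0.12, limma adjusted p = 0.05393) and without the choroid-high arrays (-0.15, limma adjusted p = 0.09463). The LT call was lost without LT 2 (-0.17, limma adjusted p = 0.05236), without LT 5 (-0.18, limma adjusted p = 0.05208) and without the 4 arrays (-0.16, limma adjusted p = 0.127), and the ST call was kept in all of these.

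Col3a1, the chain of the thin fibrils of distensible tissues such as vessel walls, was lower in AC and ST and not in LT. In YC it ranged from 200 to 229 with a median of 221.5. The AC arrays read 201, 165, 187, 189 and 205, the ST arrays ranged from 163 to 200 with a median of 181, and the LT arrays from 190 to 229 with a median of 222.5. Within YC, the lowest value was YC 1 alone, at 200 against 219 for the next. AC 1 and AC 5 lay above that value and ST 1 equalled it, and the remaining AC and ST arrays lay below every YC array. The log2 difference was -0.21 in AC (SE 0.06, limma adjusted p = 0.03038) and -0.27 in ST (SE 0.058, limma adjusted p = 0.01112). LT differed from YC by -0.028 (SE 0.058, limma adjusted p = 0.8882), and the difference between LT and ST, 0.24 (SE 0.058), was not called at an adjusted p of 0.1364, nor that between LT and AC, 0.18 (SE 0.06), at an adjusted p of 0.2097. The AC call remained in 15 of the 23 fits without 1 array. It was lost without any of YC 2, YC 3, YC 4, YC 5, YC 6, AC 2, AC 3 or AC 4, where adjusted p lay between 0.05371 and 0.08212, and without the choroid-high arrays (-0.21, limma adjusted p = 0.1227).

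Col27a1, a fibrillar chain of cartilage, followed the same order. YC ranged from 484 to 530 with a median of 507.5, the AC arrays read 437, 405, 456, 468 and 504, ST ranged from 413 to 477 with a median of 443.5, and LT from 441 to 518 with a median of 480. Every ST array lay below every YC array, whereas AC 5 and 2 LT arrays reached the YC range. The difference from YC was -0.16 in AC (SE 0.05, limma adjusted p = 0.04444) and -0.20 in ST (SE 0.048, limma adjusted p = 0.02343). The AC call was kept in 10 of the 23 fits without 1 array and lost without YC 2, YC 3, YC 4, YC 5, YC 6, each of AC 1 to AC 4, ST 2, ST 5, ST 6 or LT 6, with adjusted p up to 0.1125, and also without the choroid-high arrays (-0.18, limma adjusted p = 0.1041). The ST call was lost without YC 3, YC 4, ST 3, ST 4 or ST 6, with adjusted p from 0.05307 to 0.06498.

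Col1a1 and Col1a2, the chains of type I collagen, each had 1 AC array above all others. Col1a1 read 209, 172, 174, 175 and 346 in AC, against 196 to 229 in YC, 158 to 195 in ST and 168 to 211 in LT. Col1a2 read 247, 198, 203, 212 and 295 in AC, against 207 to 251 in YC, 182 to 213 in ST and 201 to 229 in LT. That array was AC 5 for both. Neither was called between AC and YC, with log2 differences of -0.021 for Col1a1 (SE 0.12, limma adjusted p = 0.9308) and 0.043 for Col1a2 (SE 0.079, limma adjusted p = 0.7678). Without AC 5, Col1a1 was called lower in AC (-0.21, limma adjusted p = 0.04994) and Col1a2 differed by -0.05.

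AC 5 held the highest signal of all 23 arrays for 8 of the 33 members, or 24.2%, against 15.1% of all probe sets, and the lowest signal for none of them, against 16.3%. These 8 were Col1a1, Col1a2, Col5a1, Col5a2, Col5a3, Col12a1, Col16a1 and Lamc1. Col5a2, a chain that is built into type I fibrils, read 296 there and at most 210 elsewhere, and Col12a1, which decorates them, 161 and at most 132. Apart from Lamc1, these 8 are fibrillar or fibril-associated chains, and Lum, a proteoglycan of the same fibrils, read 241 on this array. The RNA integrity number of AC 5 was 8.9, also the number of LT 3 and the lowest of the 23. Other arrays stood out at the low end. AC 2 held the lowest signal for 8 members, or 24.2%, against 6.56% of all probe sets, and the highest for none. ST 3 and ST 4 each held the lowest for 5 members, or 15.2%, against 2.57% and 3.6% of all probe sets.

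The other fibrillar chains were not called in AC with all arrays. Col2a1, the main collagen of cartilage, came closest with a log2 difference of -0.12 (SE 0.041, limma adjusted p = 0.05866), and was called without ST 1 or ST 4. Col5a1 and Col5a3, which nucleate fibrils, differed by -0.11 each, and Col11a2 by -0.073. Without AC 5, Col2a1 (-0.15), Col5a1 (-0.19) and Col5a3 (-0.17) were called lower, with limma adjusted p of 0.02579, 0.02413 and 0.02036. In ST all 10 fibrillar differences from YC were below 0, against 47.5% of all probe sets, with a median of -0.20. There were 3 calls, where 1.44% of all probe sets were called lower. At an unadjusted p under 0.05, 7 of the 10 passed, against 9.42% of all probe sets passing as lower. In LT 9 of 10 were below 0, against 56.1% of all probe sets, with a median of -0.07. The 1 call was lower, where 0.225% of all probe sets were called lower.

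**Figure D4:**
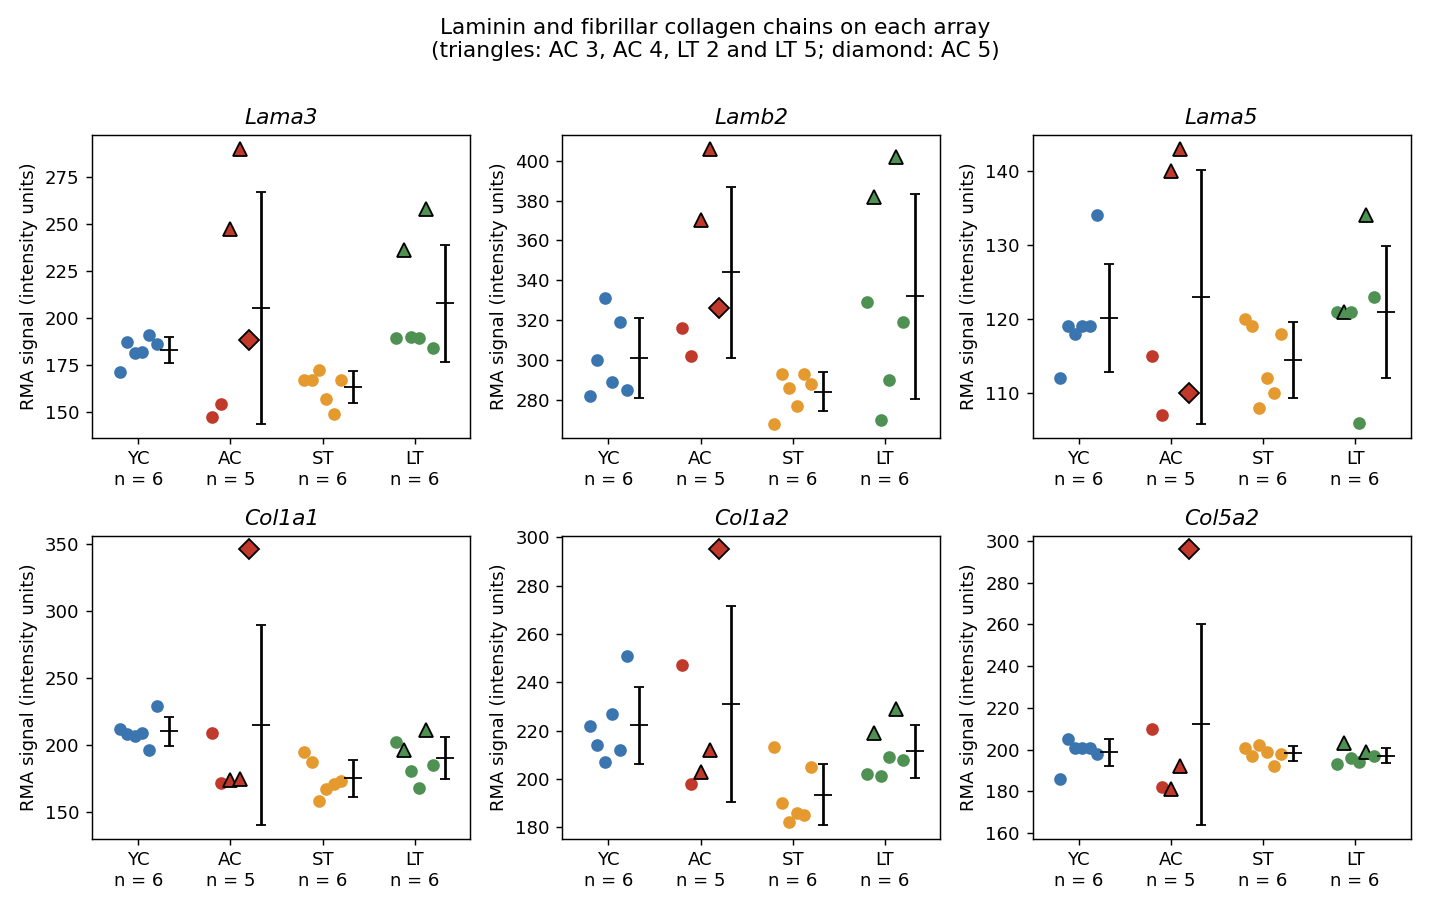
Signal intensity on each array of 3 laminin chains and 3 fibrillar collagen chains, with the mean and SD beside each group. Triangles are AC 3, AC 4, LT 2 and LT 5, the choroid-high arrays, and the diamond is AC 5. Lama3 and Lamb2 are above every other array on the triangles, and Col1a1, Col1a2 and Col5a2 are highest on the diamond.

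Among the fibril-associated collagens, which sit on the surface of fibrils, 1 of 5 was called lower in AC and 4 of 5 differences were below 0. Over all probe sets these shares were 4.18% and 52.5%. Col14a1, which limits fibril growth, read 75, 83, 73, 70 and 72 in AC, against 78 to 87 in YC with a median of 82.5, 73 to 82 in ST (median 79) and 72 to 85 in LT (median 77). AC 2 lay inside the YC range and the other 4 AC arrays below it. Its log2 difference of -0.14 (SE 0.046, limma adjusted p = 0.04877) was the weakest call and was kept in 5 of the 23 fits without 1 array, those without YC 1, AC 2, ST 4, LT 2 or LT 3, with a highest adjusted p of 0.1255 without AC 4. It was also lost under a 1-way analysis of variance with Benjamini-Hochberg adjustment of its pairwise p (adjusted p = 0.05466). The methods use the pairwise p without adjustment. Col9a2, a chain of cartilage fibrils, differed by -0.18 (SE 0.075, limma adjusted p = 0.1193) and Col9a1 by -0.13. Col12a1 was the exception, 0.13 higher in AC (SE 0.069, limma adjusted p = 0.2468), 0.047 without AC 5, and called higher when the choroid plexus score was a covariate (0.21, limma adjusted p = 0.04233).

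Col7a1, the collagen of anchoring fibrils that tie basement membranes to the tissue beneath, had the largest decrease in AC. YC ranged from 212 to 225 with a median of 219.5. The AC arrays read 195, 159, 180, 180 and 212, ST ranged from 169 to 214 with a median of 186.5, and LT from 186 to 215 with a median of 209.5. AC 5 equalled the lowest YC array and the other 4 AC arrays lay below it, while ST 1 and 1 LT array entered the YC range above its lowest value. The log2 difference from YC was -0.24 in AC (SE 0.062, limma adjusted p = 0.01823) and -0.22 in ST (SE 0.06, limma adjusted p = 0.03818), and LT differed by -0.096 without a call. The AC call held in all 23 fits without 1 array, with differences from -0.30 to -0.19, but not without the choroid-high arrays (-0.22, limma adjusted p = 0.1177) or with the YC and AC arrays fitted alone (-0.24, limma adjusted p = 0.05407). The ST call was lost in 9 of these fits, without YC 2 to YC 6 or without ST 3 to ST 6, with adjusted p from 0.05171 to 0.09779. Col10a1, a network collagen of growth plate cartilage, differed by 0.0027 in AC (SE 0.087).

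The 3 transmembrane collagens, single-pass proteins whose ectodomains can be shed, moved alike without being called. Col13a1, a collagen of cell junctions and neuromuscular synapses, read 150, 133, 149, 145 and 166 in AC against 156 to 181 in YC, with 141 to 163 in ST and 147 to 188 in LT. Col17a1, the collagen of hemidesmosomes, read 119, 99, 107, 109 and 123 in AC against 115 to 135 in YC, with 106 to 130 in ST and 111 to 136 in LT. Col23a1 read 230, 205, 205, 192 and 195 in AC against 211 to 234 in YC, with 191 to 233 in ST and 217 to 227 in LT. For each gene 3 or 4 of the 5 AC arrays lay below the YC range. The log2 differences in AC were -0.19, -0.18 and -0.14, with limma adjusted p of 0.06258, 0.07491 and 0.05154. Col13a1 and Col17a1 were called without AC 5, at -0.23 and -0.22. Col13a1 was also called without LT 6 and Col17a1 without AC 1. Col23a1 was called without AC 1 (-0.18, limma adjusted p = 0.007851) and without YC 5, ST 1 or ST 4. All 3 were called with array weights, Col13a1 and Col23a1 with quantile normalization, and Col23a1 with the replicate block and with a signal minimum of 100. LT lay above AC by 0.14, 0.15 and 0.10, each at an unadjusted p under 0.05 and none called.

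Basement membrane collagen IV had no called member. Col4a1, a chain of the standard collagen IV network of vessels, read 198, 161, 206, 214 and 198 in AC, against 182 to 201 in YC, 169 to 197 in ST and 175 to 205 in LT. AC 2 was the lowest of all 23 arrays and AC 4 the highest, and the groups overlapped, with a difference between AC and YC of 0.032 (SE 0.058, limma adjusted p = 0.7599) that turned to -0.041 without the choroid-high arrays. Col4a3 and Col4a4, neighbours transcribed in opposite directions on chromosome 9 and known from the kidney filter, differed by -0.14 (SE 0.052, limma adjusted p = 0.0809) and -0.089. Col4a3 read 128, 142, 140, 148 and 162 in AC against 152 to 165 in YC, 134 to 157 in ST and 140 to 166 in LT. It was called lower in AC without AC 5 (-0.19, limma adjusted p = 0.01933). The 3 Col6a4 probe sets, for a beaded filament collagen, differed by -0.13, -0.083 and -0.0092.

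The laminin alpha chains, which carry the sites for cell receptors, split by group. Lama1, a chain of the pial basement membrane, read 89, 102, 101, 101 and 94 in AC. YC ranged from 101 to 112 with a median of 103, ST from 85 to 103 with a median of 90.5, and LT from 98 to 113 with a median of 107. ST held the low values, with only ST 1 inside the YC range, and LT and YC shared theirs. Lama1 was called lower in ST than in YC (-0.20, SE 0.049, limma adjusted p = 0.02337) and by the F test across the 4 groups (limma adjusted p = 0.02136). In AC the difference was -0.11 (SE 0.052, limma adjusted p = 0.1662). LT was 0.23 above ST (SE 0.049, limma adjusted p = 0.1113), not called. It was called without ST 1 (0.26, limma adjusted p = 0.04262), with all probe sets tested (limma adjusted p = 0.04268) and with array weights (0.23, limma adjusted p = 0.0411). The ST call was lost without YC 2, YC 6, ST 4, ST 5 or ST 6, with adjusted p from 0.05629 to 0.06498.

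Lama3, an alpha chain of epithelial laminins, and Lamb2, the beta chain of vascular, pial and synaptic laminins, followed the choroid plexus genes. Lama3 read 147, 154, 247, 290 and 188 in AC and 189, 236, 190, 189, 258 and 184 in LT, against 171 to 191 in YC and 149 to 172 in ST. Lamb2 read 316, 302, 370, 406 and 326 in AC and 329, 382, 270, 290, 402 and 319 in LT, against 282 to 331 in YC and 268 to 293 in ST. For both genes AC 3, AC 4, LT 2 and LT 5 lay above all other arrays, as for 2.01% of all probe sets, and no other member did so. Lama3 differed between ST and AC by -0.28 (SE 0.13, limma adjusted p = 0.4872), and by 0.0082 without these 4 arrays. Every LT array of Lama3 lay above every ST array, as for 0.442% of probe sets and no other member, with a difference of 0.34 (SE 0.12, limma adjusted p = 0.2835), of 0.21 without the 4 arrays and of 0.029 with the choroid plexus score as a covariate (limma adjusted p = 0.933). Every ST array of Lamb2 lay below every AC array, as for 0.315% of probe sets and no other member, with a difference of -0.27 (SE 0.087, limma adjusted p = 0.3481), of -0.15 without the 4 arrays and of -0.088 with the covariate. Lamb2 differed between AC and YC by 0.19 (SE 0.087, limma adjusted p = 0.1674), by 0.066 without them and by 0.046 with the covariate.

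Lama5, the alpha chain of mature vessel and epithelial laminins, read 115, 107, 140, 143 and 110 in AC, against 112 to 134 in YC, 108 to 120 in ST and 106 to 134 in LT. Its highest arrays were AC 4 and AC 3, and its difference between AC and YC of 0.025 (SE 0.07, limma adjusted p = 0.8534) was -0.12 without the choroid-high arrays. Lamb3, the beta chain paired with Lama3 in skin, and Lamc3, a gamma chain of brain vessels and the pial surface, differed by -0.12 and -0.10 between AC and YC, without calls.

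Between the FKBP1b groups and AC no member was called. In ST against AC limma called 0 of 13339 probe sets, or 0%, and the analysis of variance with adjusted p also called no member. At an unadjusted p under 0.05, 4 members were lower and none higher, where 9.82% of all probe sets passed, 4.91% as lower. These were Lamc1, Lamb2, Col1a2 and Lama3. Col1a2 was -0.24 (SE 0.079, limma adjusted p = 0.3533), with AC 5 its highest array, and -0.15 without AC 5. The median difference was -0.02 for the members and 0.01 for all probe sets.

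In LT against AC, limma called 10 probe sets, or 0.075%, none of them a member, and the analysis of variance with adjusted p called no member. At an unadjusted p under 0.05, 8 members passed, 7 higher and 1 lower. Over all probe sets 12.6% passed, 6.03% as higher and 6.59% as lower. The 7 that were higher were Col3a1, Col4a3, Col7a1, Col13a1, Col17a1, Col23a1 and Lama1, each below YC in AC, and the lower one was Lamc1. Lama1 was 0.14 above AC (SE 0.052, limma adjusted p = 0.2702) and Col4a3 0.13 (SE 0.052, limma adjusted p = 0.3123). The same AC arrays enter the comparisons with YC and with LT. For the average of both FKBP1b groups against AC, 0.03% of probe sets were called and no member. Lamc1 (-0.18, SE 0.041, limma adjusted p = 0.1126), Col1a2, Lamb2 and Col12a1 (-0.13) had an unadjusted p under 0.05, all lower, where 10.5% of all probe sets passed in either direction. Lamc1 was called in 1 of the 23 fits without 1 array, that without AC 1 (-0.23, limma adjusted p = 0.01078). The highest limma adjusted p in these fits was 0.334. Without AC 5, Col1a2 went from -0.18 to -0.085 and Col12a1 from -0.13 to -0.049. Lamb2 went from -0.16 to -0.10 without the choroid-high arrays.

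LT and ST differed in a common direction below the threshold. Of the 33 members, 28 were higher in LT than in ST, against 42.5% of all probe sets, with a median of 0.08 against -0.013. No member was called by limma, which called 0.0075% of probe sets, or by the analysis of variance with adjusted p. At an unadjusted p under 0.05, 8 members passed, all higher, against 4.95% of probe sets passing as higher. They were Lama1, Col3a1, Col4a3 (0.15, SE 0.05, limma adjusted p = 0.2484), Lama3, Lamb2, Col27a1, Col9a1 and Col7a1. The choroid plexus score was -1.102 to -0.703 in ST and -0.398 to 2.756 in LT, without overlap. With this score as a covariate Lama1 was 0.21 and Col3a1 0.20 higher in LT, Lama3 0.029 and Lamb2 0.018, and no member was called. Without the choroid-high arrays Lamb2 was 0.084 higher. With array weights Lama1 and Col3a1 were called.

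Against YC, ST had 5 members called lower and none higher, where 4.15% of probe sets were called, 1.44% as lower. These were Col11a1, Col3a1, Lama1, Col27a1 and Col7a1. The difference was below 0 for 31 of 33 members, against 47.5% of all probe sets, with a median of -0.12 against 0.005. Every ST array lay below every YC array for Col11a1, Col27a1 and Col1a1, as for 1.24% of probe sets. The count was 11 without ST 1, 10 without AC 5, 3 without YC 2, YC 3, YC 4, YC 6, ST 3 or ST 5, 2 without ST 4 or ST 6, and 12 with the YC and ST arrays fitted alone. ST was free of the choroid-high arrays, and the count without those 4 arrays was 4.

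LT against YC had 1 member called, Col11a1, lower, where 1.03% of probe sets were called, 0.225% as lower. It was also the only member at an unadjusted p under 0.05, against 13.4% of all probe sets. Col14a1 differed by -0.088 (SE 0.044, limma adjusted p = 0.3876) and Col2a1 by -0.072 (SE 0.039, limma adjusted p = 0.4424). The median difference was -0.024 for the members and -0.01 for all probe sets. Over all 4 groups the F test called 6 members, or 18.2%, against 5.46% of all probe sets. They were Lamc1, Col11a1, Col3a1, Lama1, Col7a1 and Col27a1.

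Among the genes that make and cross-link collagen, the calls in AC were higher. Of 26 probe sets for 25 such genes, 3 were called higher, where 5.56% of all probe sets were, and none lower, with a median difference of 0.061. P4ha1, a subunit of the prolyl hydroxylase that stabilizes the triple helix, was 0.19 higher (SE 0.047, limma adjusted p = 0.01475). Crtap, a partner of prolyl 3-hydroxylase, was 0.35 higher (SE 0.1, limma adjusted p = 0.03608), and Loxl1, a cross-linking amine oxidase, 0.34 higher (SE 0.11, limma adjusted p = 0.04768). The P4ha1 call held in all 23 fits without 1 array. The Crtap call was lost without YC 2, YC 3, YC 4, YC 5, YC 6, AC 3 or AC 4, with adjusted p up to 0.1037, and the Loxl1 call was kept in 6 of the 23, with adjusted p up to 0.1399. Without the choroid-high arrays none of the 3 was called, at 0.17, 0.16 and 0.26. Colgalt1, which adds galactose to collagen, was 0.14 higher at an adjusted p of 0.0509 in limma. Serpinh1, the collagen chaperone, was not called, at 0.071 (SE 0.069).

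Of 10 basement membrane partners, Fbln1, a glycoprotein that binds laminin, was the single call, 0.19 higher in AC (SE 0.053, limma adjusted p = 0.02568). The Fbln1 call was lost without YC 2, YC 3, AC 3 or AC 4, with adjusted p up to 0.0717, and without the choroid-high arrays (0.14, limma adjusted p = 0.1384). Sparc, a collagen-binding glycoprotein, was 0.22 higher and Egfl7, a vessel matrix protein, 0.14 higher without calls, and Smoc2 was -0.19, also without a call. Of 15 receptors, Itga1, the alpha subunit of a collagen-binding integrin, was 0.34 higher (SE 0.082, limma adjusted p = 0.01345), and Itga6, of laminin-binding integrins, 0.18 higher (SE 0.046, limma adjusted p = 0.0158). Both integrin calls held in all 23 fits without 1 array, and without the choroid-high arrays Itga6 was called (0.21, limma adjusted p = 0.04045) and Itga1 was not (0.22, limma adjusted p = 0.1527). Itga10 was -0.25 and the collagen receptor Ddr1 0.14, with limma adjusted p of 0.05121 and 0.1055. None of these 3 lists had a call in ST or LT against AC or against YC. The endothelial markers named beside Lamc1 were higher in the same AC arrays. All 9 markers of meninges and fibroblasts had differences above 0 in AC, against 47.5% of all probe sets. Of these 9, 2 were called higher, where 5.56% of all probe sets were. The part of these markers in the differences of the 3 lists was not tested.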

How the data were processed

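The authors hybridised rat RNA to Rat Gene 1.0 ST arrays, 1 array for each animal, of which 23 were analysed here, and deposited probe set intensities made with RMA in Partek (versions not given in the sources used here), unlogged and rounded to whole numbers from 4 to 20673. Of the deposited values, 758 were blank, none of them in a collagen or laminin probe set. The study states 6 arrays in each group, and 5 AC arrays were analysed here. Groups came from the sample labels.

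From these values log2 signals were computed in R 4.3.3 and fitted with limma 3.58.1, with 1 mean for each of the 4 groups and no covariate. The 7 comparisons and an F test across groups were adjusted by Benjamini-Hochberg over the 13339 singly annotated probe sets that reached 40 on 4 or more arrays. A 1-way analysis of variance with pairwise tests was an alternative, with its pairwise p also adjusted by Benjamini-Hochberg. The methods use these tests without adjustment, so its calls here are not those of the methods. Gene symbols came from the platform annotation, where 15307 probe sets had 1 symbol, 323 several and 13581 none, and all 31 member symbols matched RefSeq on GRCr8. The fit was checked on simulated data.

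The members and lists were chosen with earlier results of these data known. Genes named with values were all called members, a fixed set of fibrillar, collagen IV and laminin chains, the 4 members with the smallest p where fewer than 3 were called, and up to 4 of each other list. The remaining members named were chosen after their values were seen. Alternatives left out each array or the choroid-high arrays, added a covariate, array weights or a replicate block, changed the scaling, or changed the probe sets tested. Each array was 1 animal, so the p-values set a group difference against the spread between animals. That spread cannot be separated from differences between dissections and between arrays.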

Additional observations from a re-analysis of the deposited data

Results flagged for a closer look

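Among the 16 members named by the fixed rule, each in 4 groups, 4 of 64 groups held an array whose gap to its nearest neighbour was a large share of the group's range, and chance alone gives about 1 in 20. For Col1a1 in AC, array AC 5 read 346 and the next 209, a gap of 0.787 of the range. For Col3a1 in YC, array YC 1 was the low one, at 200 against 219, with a gap of 0.655. For Col4a3 in LT, array LT 4 was low at 140 against 157, with a gap of 0.654. For Lama5 in YC, array YC 6 was high at 134 against 119, with a gap of 0.682. The Col1a1 array is the one on which 7 fibrillar and fibril-associated chains were highest of all 23 arrays and Lum read 241.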

How the results depend on the processing

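Of the counts of called members under 38 alternative settings, 267 stayed within 1.5 times the value reported and 36 did not. Without the choroid-high arrays 1 member was called in AC against YC, 0 in LT against YC and 1 by the F test, a setting with fewer arrays. With the choroid plexus score as a covariate LT against YC had 0 calls. Testing all probe sets, with or without a symbol, gave 1 call in LT against AC (Lamc1, adjusted p = 0.04961 in limma) and 1 in LT against ST (Lama1). With array weights, which were lowest for AC 5, the counts were 13 in AC against YC, 16 in ST against YC and 2 in LT against ST. With the compared groups fitted alone they were 1 in AC against YC and 12 in ST against YC. Leaving out 1 array at a time gave 3 to 12 calls in AC against YC, 2 to 11 in ST against YC, 0 to 1 in LT against YC and 4 to 10 by the F test, and 0 to 1 in ST against AC, LT against AC, their average against AC, and LT against ST. Except where stated, the cause of these shifts was not tested.

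Among single members the called differences kept their sign in every setting, and 18 values changed sign, all of members not called. In AC against YC, Col1a1 was 0.1422 without the choroid-high arrays, 0.0274 with the covariate and 0.0341 in the analysis of variance, and from -0.2069 to 0.0452 with 1 array left out. Lama5 was -0.1173 without the choroid-high arrays and -0.0765 with the covariate, and -0.0324 to 0.0722 with 1 array left out. Col4a1 was -0.0414 and -0.0133 in those settings, and -0.0022 to 0.1004 with 1 array left out. Col1a2 was -0.0428 with array weights and -0.0498 to 0.094 with 1 array left out. In ST against AC, Lama3 was 0.0082 without the choroid-high arrays and 0.0059 with the covariate. Equal array medians gave 5 called members in AC against YC and quantile normalization 8, 7 of them lower, and Col14a1 was lost under both (adjusted p = 0.101 and 0.2312 in limma), as was Lama1 in ST against YC under the latter (adjusted p = 0.07522).

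Replicate numbers were shared between groups but did not pair the animals: deviations of same-numbered arrays from their group means correlated at -0.378 to 0.199, with a median of 0.00012, and 7 of 33 pairs lay over 0.1. With the replicate number as a block, 5 members were called in AC against YC, 6 in ST against YC, 1 in LT against YC, 4 by the F test and 0 in the other comparisons. Between 2 groups the SE of a member's difference was 0.037 to 0.13, and differences of that size could not be resolved. Differences well above the SE could also go uncalled, as for Col3a1 between LT and ST (0.24, SE 0.058).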
